A study of Mus musculus with 6 samples.

Results

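Messenger RNA levels of 10 secreted growth factors and cytokines that act on cells of the oligodendrocyte lineage were examined in microglia, the brain's own macrophages, sorted from mouse corpus callosum after focal loss of myelin. The 10 genes were chosen by name (Inhba, Osm, Pdgfa, Pdgfb, Hgf, Lif, Vegfa, Bmp2, Tgfb2 and Gdf15) out of 49671 genes in the deposited table of FPKM (fragments per kilobase of transcript, scaled to sequencing depth). Of the 10, 9 were matched by Ensembl identifier to the raw count table, which holds 24984 genes; Gdf15 was read from the FPKM table alone. All animals were male C57BL/6J mice aged 10 weeks, and each received 2 µl of 1% lysolecithin (LPC), a detergent-like lipid that strips myelin, in the corpus callosum. Microglia were collected 3 days later (LPC day 3, 3 mice and 3 libraries) or 10 days later (LPC day 10, 3 mice and 3 libraries). The sort kept live CD11b-positive cells with low CD45 and without Ly6G or CD3. No uninjured or vehicle-injected mice were analysed here, so every comparison sets the later lesion against the earlier one. In bulk samples such as these, fewer cells of a type and less RNA per cell cannot be told apart.

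After demyelination, oligodendrocyte progenitor cells divide, move into the lesion and mature into myelin-forming cells, and macrophages and microglia are known sources of factors that act on these steps. PDGF-A is the classical mitogen of progenitors, and activin A, the dimer encoded by Inhba, is known as a microglial factor that promotes oligodendrocyte differentiation. Oncostatin M and LIF signal through gp130, most of the TGF-beta family through paired serine/threonine kinase receptors, and PDGF, HGF and VEGF through receptor tyrosine kinases.

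Library totals ran from 5890081 to 9212197 counts, and 1 count stood for 0.0982 to 0.269 CPM (TMM-scaled counts per 1e+06, the level used below). LPC day 10 replicate 3 stood apart: it lacked counts for 15.4% of the 10535 tested genes, where each other library lacked 0.551% to 5.37%. All 10 microglia markers were tested genes with counts in every library, and Csf1r, the receptor on which microglia depend for survival, had at least 2377 CPM.

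Of the 10 genes, 7 had at least 1 count. Osm, Pdgfa, Pdgfb, Hgf and Vegfa passed the count filter and were tested, Tgfb2 and Lif had counts but did not pass, Inhba and Bmp2 had no count, and Gdf15 is listed at 0 FPKM. By FPKM, the scale on which genes of different length can be set side by side, the median over the 6 libraries was highest for Pdgfb (17.0), followed by Pdgfa (3.78), Osm (1.04), Vegfa (0.424) and Hgf (0.174), and it was 0 for the other 5. Neighbours in this order overlapped widely: Pdgfb spanned 1.98 to 33.5 FPKM, Pdgfa 0.163 to 21.6, Osm 0 to 7.17, Vegfa 0 to 8.90 and Hgf 0.0236 to 6.44. The 3 libraries of day 3 had counts for 5, 4 and 4 of the 9 genes (replicates 1, 2 and 3), and those of day 10 for 7, 6 and 4.

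None of the 5 tested genes was called in edgeR's quasi-likelihood test with Benjamini-Hochberg adjustment over all 10535 genes (lowest adjusted p = 0.684, n = 3 libraries per group), where 0.114% of genes were called, all of them higher at day 10, and 0% lower. DESeq2 and limma-voom also called 0 of the 5, where they called 0.726% and 0.00949% of all genes with an adjusted p. DESeq2 gave no p for Hgf, which it therefore could not call. At an unadjusted p under 0.05 edgeR gave 1 of the 5, Hgf, which was lower at day 10, against 6.13% of all genes (4.76% higher and 1.38% lower). One gene, Osm, had groups that did not overlap, while 8.45% of all genes did so (3.47% with day 10 above and 4.97% with day 10 below).

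**Figure D1:**
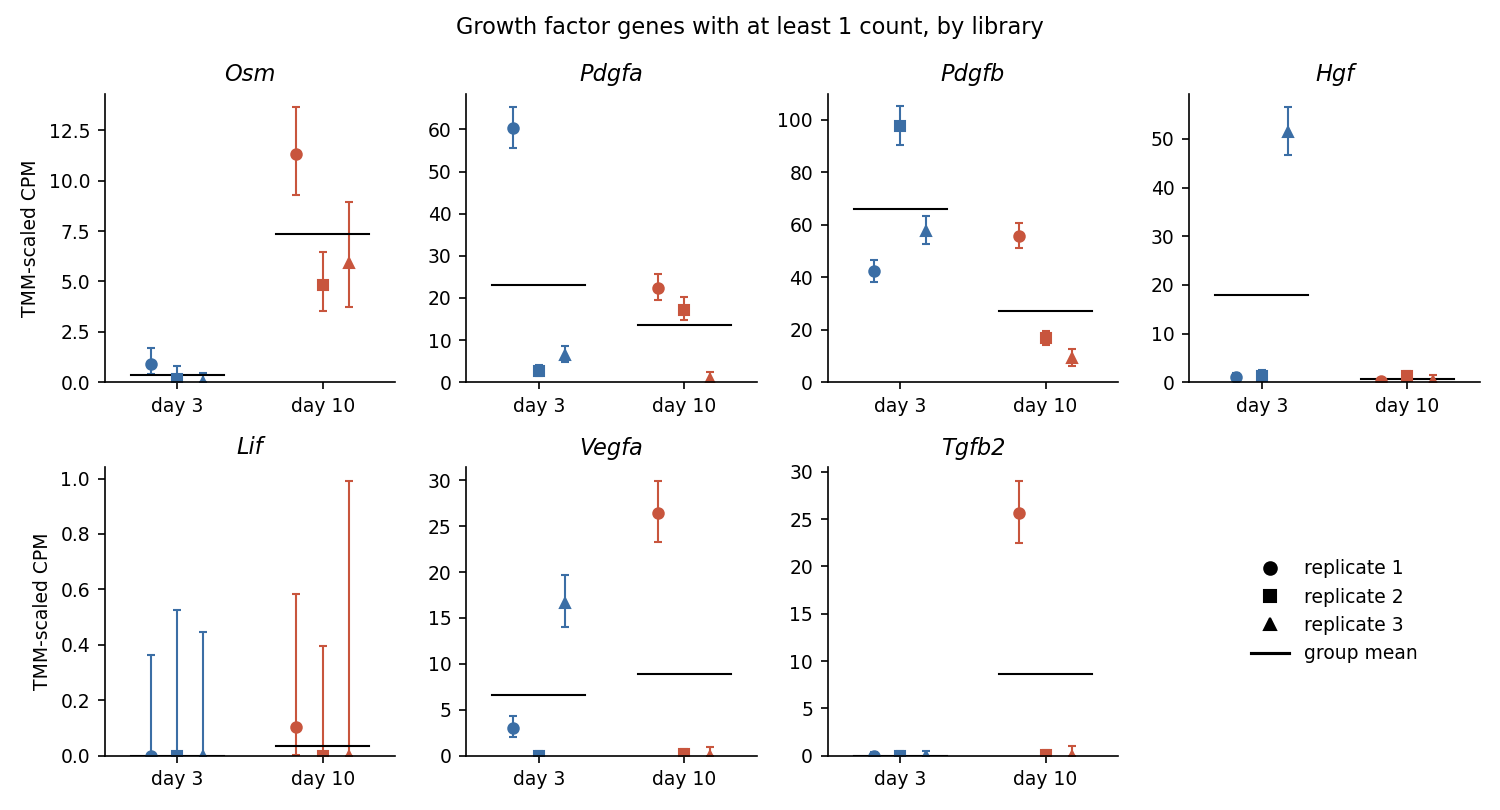
TMM-scaled CPM (y axis, a separate linear scale per panel) of the 7 growth factor genes with at least 1 count, at day 3 (blue) and day 10 (red). Symbols are replicates, bars are exact 95% binomial intervals that cover counting error only, and black lines are group means; Osm has all day 10 points above all day 3 points, while Hgf and Tgfb2 each have 1 high library.

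Oncostatin M, encoded by Osm (ENSMUSG00000058755, GRCm38 chromosome 11, 4236420 to 4241026, plus strand), is a cytokine of the interleukin-6 family that activated myeloid cells secrete. Its counts were 9, 1 and 0 in replicates 1, 2 and 3 of day 3 and 108, 45 and 22 in those of day 10, or 0.884, 0.142 and 0 CPM on day 3 against 11.3, 4.84 and 5.92 CPM on day 10. Every day 10 library thus lay above every day 3 library. The 95% interval from counting alone reached up to 1.68 CPM in the highest day 3 library and began at 3.53 CPM in the lowest day 10 library.

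The mean Osm level was 0.342 ± 0.475 CPM on day 3 and 7.35 ± 3.46 CPM on day 10 (SD, n = 3). The log2 ratio of day 10 to day 3 was 4.34 ± 2.28 (SE; edgeR, unadjusted p = 0.0649, adjusted p = 0.863), which did not pass the test. Osm passed the count filter through its day 10 libraries, since no day 3 library reached 10 counts, so the filter itself favours such a separation, and the lack of overlap is given as a description. In the authors' deposited table the log2 ratio was 4.90 with an unadjusted p of 0.003924, rank 68 among 24984 genes. The ratio was 4.45 without LPC day 10 replicate 3, and it ranged from 3.80 to 6.44 when each library was left out in turn. The highest of these values, without LPC day 3 replicate 1, rests on 1 count at day 3.

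Some markers of other cells moved with Osm and others did not. Mbp, a myelin protein gene, had 0.884, 10.2 and 0.241 CPM on day 3 and 62.3, 41.4 and 13.2 CPM on day 10. Its groups did not overlap either. The most abundant marker of the same list by mean CPM, Cnp, overlapped between the time points (log2 ratio 0.05). Cnp had 30.6, 16.4 and 24.2 CPM on day 3 and 41.4, 30.7 and 1.61 CPM on day 10. Cldn11 of that list had no count. The summed oligodendrocyte markers, 6 of 7 in the count table, ranged from 26.6 to 34.3 CPM on day 3 and from 15.6 to 114.2 CPM on day 10. Monocyte markers, 4 of 5 in the table, summed to 0 to 1.67 CPM on day 3 and to 2.72, 7.32 and 0 CPM on day 10. The most abundant of them, Ccr2, had 1.28, 0 and 0.241 CPM on day 3 and 1.26, 5.60 and 0 CPM on day 10. The part of these cells in the Osm level was not tested. Over the 6 libraries, the log2 CPM of Osm was most like that of Cdk11b (Pearson r = 0.986) and Chn2 (r = 0.977). Of the 7855 genes searched, 38 had r over 0.9 with Osm.

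Lif (ENSMUSG00000034394, chromosome 11, 4257557 to 4272514, plus strand), which encodes leukemia inhibitory factor, is the neighbour of Osm, with 16530 bases and no annotated gene between them. It had 1 count in all, in LPC day 10 replicate 1 (0.105 CPM, 95% interval up to 0.583 CPM). Elsewhere its count of 0 allows up to 0.295 to 0.807 CPM, depending on the library (3 counts). Osm had 185 counts in the same libraries.

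Pdgfb (ENSMUSG00000000489, chromosome 15, 79995874 to 80014977, minus strand), the B chain of platelet-derived growth factor and best known as a ligand for pericytes, was the one of the 10 with the highest median FPKM. Its day 3 levels were 42.2, 97.5 and 57.8 CPM and its day 10 levels 55.7, 16.7 and 9.14 CPM. LPC day 10 replicate 1 lay inside the day 3 range, and the other day 10 libraries lay below it. The means were 65.8 ± 28.5 and 27.2 ± 25.0 CPM (SD, n = 3), and the log2 ratio was −1.27 ± 1.14 (SE; edgeR, adjusted p = 0.999). Without LPC day 10 replicate 1 the groups did not overlap and the ratio was −2.35 (edgeR, unadjusted p = 0.119). Leaving out LPC day 10 replicate 3 gave −0.90. Tgfb1i1 (r = 0.999) and Cars2 (r = 0.982) had the most similar log2 CPM, and 152 of 7855 genes searched had r over 0.9.

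Pdgfa (ENSMUSG00000025856, chromosome 5, 138976014 to 138997370, minus strand), the A chain, had day 3 levels of 60.3, 2.56 and 6.51 CPM and day 10 levels of 22.4, 17.2 and 0.807 CPM. The highest value (614 counts) was in LPC day 3 replicate 1 and the lowest (3 counts) in LPC day 10 replicate 3, and the groups overlapped. The means were 23.1 ± 32.3 and 13.5 ± 11.3 CPM (SD, n = 3), and the log2 ratio was −0.78 ± 1.55 (SE; edgeR, adjusted p = 0.999). Its direction rested on 1 library, as it became 1.55 without LPC day 3 replicate 1 (edgeR, unadjusted p = 0.498), and it was −0.25 without LPC day 10 replicate 3. Of its 3119 exonic bases, 813 overlap 6330403L08Rik on the other strand, which had 194, 37, 25, 455, 14 and 42 counts over the libraries in the same order. No source used here says whether counting used the strand, so reads in that stretch cannot be told apart. Larp7 (r = 0.989) and Kif3a (r = 0.983) had the most similar log2 CPM, and 146 of 7855 genes searched had r over 0.9.

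Pdgfa, Hgf, Vegfa and Tgfb2 were the members with a library above 25 CPM beside another under 1 CPM, and their promoters are shown as the 250 bases before the transcription start (RefSeq, GRCm38.p6). The window nearest the GENCODE gene start was taken (for Pdgfa its start site lies 2426 bases inside the annotated gene), and 7 of the 10 genes had an entry, Osm, Pdgfb and Bmp2 being the others. Capitals mark matches, on either strand, to ACGTG (the core of the hypoxia response element), TGANTCA (AP-1), TTCNNNGAA (STAT), GGGCGG (the GC box) or TATAAA (the TATA box).
Pdgfa, chr5:138994945-138995194, minus strand: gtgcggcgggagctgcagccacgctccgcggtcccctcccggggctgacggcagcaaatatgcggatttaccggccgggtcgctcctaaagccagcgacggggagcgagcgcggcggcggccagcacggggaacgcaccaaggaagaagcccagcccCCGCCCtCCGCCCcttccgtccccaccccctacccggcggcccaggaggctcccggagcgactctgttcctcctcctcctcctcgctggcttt
Hgf, chr5:16553245-16553494, plus strand: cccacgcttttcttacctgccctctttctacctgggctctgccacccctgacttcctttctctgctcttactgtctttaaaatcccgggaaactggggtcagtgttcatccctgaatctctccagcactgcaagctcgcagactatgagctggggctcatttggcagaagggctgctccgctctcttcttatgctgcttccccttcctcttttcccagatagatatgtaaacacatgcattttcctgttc
Vegfa, chr17:46032378-46032627, minus strand: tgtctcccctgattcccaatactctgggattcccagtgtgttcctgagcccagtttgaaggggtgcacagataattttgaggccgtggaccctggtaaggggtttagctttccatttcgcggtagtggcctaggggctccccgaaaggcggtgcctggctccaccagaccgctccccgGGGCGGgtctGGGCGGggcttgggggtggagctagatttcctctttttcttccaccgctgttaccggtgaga
Tgfb2, chr1:186705990-186706239, minus strand: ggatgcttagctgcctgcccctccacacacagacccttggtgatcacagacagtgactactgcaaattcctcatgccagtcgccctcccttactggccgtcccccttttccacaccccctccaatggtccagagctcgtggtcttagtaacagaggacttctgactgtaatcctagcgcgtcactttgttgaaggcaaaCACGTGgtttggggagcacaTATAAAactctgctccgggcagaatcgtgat
The Pdgfa window has GC boxes 93 and 86 bases before the start, and the Vegfa window has them at 72 and 62 bases. The Tgfb2 window has TATAAA 31 bases before the start and a palindromic CACGTG, which holds ACGTG on both strands, and the Hgf window has none of the 5 motifs. Among 32851 windows of the same length, 16.6% hold ACGTG, 6.75% TGANTCA, 7.02% TTCNNNGAA, 32.7% GGGCGG and 12.4% TATAAA. A match describes letters in the window and does not show that a factor is bound, and the lack of one says nothing about the factor.

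Hgf (ENSMUSG00000028864, chromosome 5, 16553495 to 16620152, plus strand) encodes hepatocyte growth factor, a mitogen and motility factor for cells with the receptor MET. Its counts were 11, 9 and 426 in replicates 1, 2 and 3 of day 3 and 3, 12 and 1 in those of day 10, or 1.08, 1.28 and 51.4 CPM against 0.314, 1.29 and 0.269 CPM. LPC day 3 replicate 3 alone held 92.4% of the summed level, and the other libraries overlapped between the time points. The log2 ratio was −4.78 ± 2.13 (SE, n = 3; edgeR, unadjusted p = 0.0307, adjusted p = 0.684) and it kept its sign, at −4.48, when LPC day 10 replicate 3 was left out. Its size was smaller with limma-voom (−2.83), and in the authors' deposited table it was −2.86 (unadjusted p = 0.1105). Hgf no longer passed the count filter without LPC day 3 replicate 3.

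The library with the high Hgf level also held the neutrophil transcripts of the data set. S100a8 and S100a9, which encode abundant calcium-binding proteins of neutrophils, had 55.0 and 23.2 CPM in it and at most 0.269 and 0.108 CPM in the others. Ly6g, the antigen excluded by the sort, had 5 counts, all in that library. The 4 of 6 neutrophil markers in the count table summed to 0, 0.142 and 79.0 CPM on day 3 and to at most 0.269 CPM on day 10, and their part in the Hgf level was not tested. Hibch (r = 0.998) and Rsf1 (r = 0.990) had the most similar log2 CPM over the 6 libraries. Of 7855 genes searched, 54 had r over 0.9 with Hgf, whose level was high in 1 library only.

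Vegfa (ENSMUSG00000023951, chromosome 17, 46016993 to 46032369, minus strand), the vascular growth factor that hypoxia induces, had 31, 0 and 138 counts in replicates 1, 2 and 3 of day 3 and 253, 2 and 0 counts in those of day 10. These were 3.05, 0 and 16.6 CPM against 26.5, 0.215 and 0 CPM. Each time point thus held both a library above 16 CPM and one with no count, and the groups overlapped. The means were 6.56 ± 8.86 and 8.90 ± 15.2 CPM (SD, n = 3), and the log2 ratio was 0.44 ± 2.01 (SE; edgeR, adjusted p = 0.999). It turned to −5.56 without LPC day 10 replicate 1 and to −0.18 without LPC day 3 replicate 2, and it was 0.98 without LPC day 10 replicate 3. In the authors' deposited table it was −0.59 (unadjusted p = 0.823). U2af2 (r = 0.992) and Trafd1 (r = 0.985) had the most similar log2 CPM, and 81 of 7855 genes searched had r over 0.9.

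Tgfb2 (ENSMUSG00000039239, chromosome 1, 186622792 to 186705989, minus strand), a TGF-beta isoform, had 245 counts in LPC day 10 replicate 1, a single count in LPC day 10 replicate 2 and 0 in the remaining libraries. Its level was 25.6 CPM in the first of these (95% interval 22.5 to 29.1), which held 99.6% of the sum. A count of 0 allows at most 0.295, 0.427 and 0.362 CPM in replicates 1, 2 and 3 of day 3 and 0.807 CPM in LPC day 10 replicate 3. In the fit with no filter on low counts Tgfb2 was not called (edgeR, unadjusted p = 0.00499, adjusted p = 0.303).

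LPC day 10 replicate 1 was also the highest library for Osm, Vegfa and the 1 count of Lif. It had counts for 16013 genes, more than any other library, and the highest sums of oligodendrocyte markers (114.2 CPM) and of progenitor markers (105.5 CPM, of which Cspg4 gave 104.2). Pdgfra, Olig1, Olig2 and Sox10 of the same progenitor list had no count in any library. The part of other cells in the Tgfb2 level was not tested.

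Inhba (ENSMUSG00000041324, chromosome 13, 16011851 to 16031621, plus strand), the gene of the activin A subunit, had no count. This allows up to 0.295, 0.427 and 0.362 CPM in replicates 1, 2 and 3 of day 3 and up to 0.314, 0.323 and 0.807 CPM in those of day 10. Bmp2 (ENSMUSG00000027358, chromosome 2, 133552159 to 133562885, plus strand), a ligand that steers progenitors away from the oligodendrocyte fate, had no count either, under the same limits. Gdf15 (ENSMUSG00000038508, chromosome 8, 70629393 to 70632456, minus strand), a stress-induced member of the family, is listed at 0 FPKM in all 6 columns. No difference between the time points was detectable for these 3 genes at this depth.

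**Figure D2:**
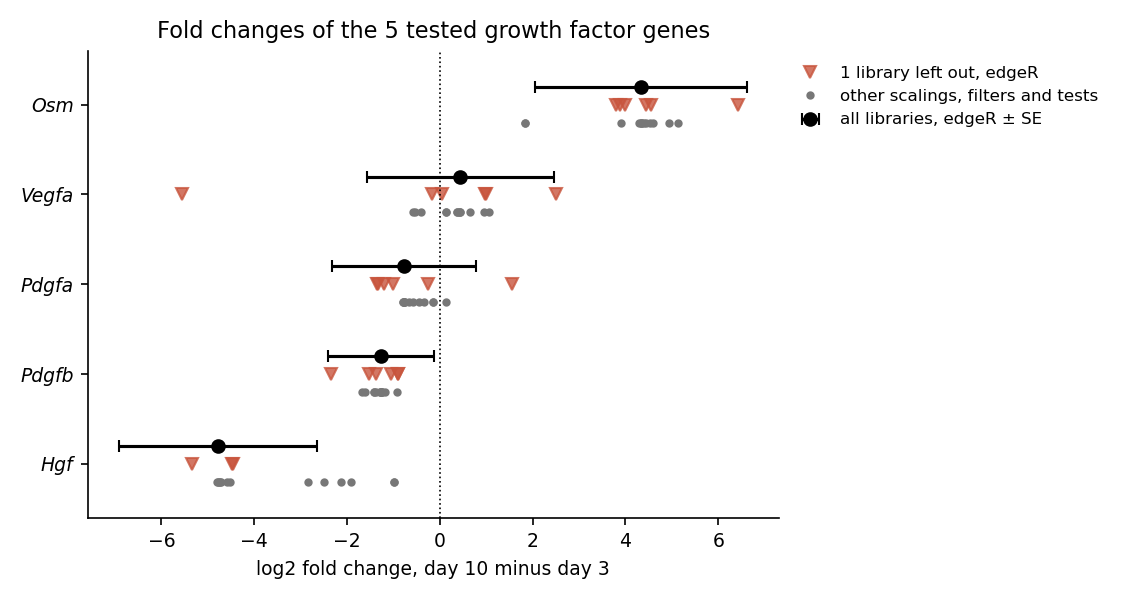
Log2 fold change of day 10 over day 3 (x axis) for the 5 tested genes, with the edgeR value and its SE from all libraries (black), the values with 1 library left out (triangles) and those from other scalings, filters and tests (grey dots). Osm stays above 0 and Pdgfb and Hgf below 0, while Pdgfa and Vegfa lie on both sides. Hgf has no triangle for the 3 libraries without which it was not tested. LPC day 3 replicate 3, its high library, is among these.

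The share of each gene's summed level that came from its highest library was set beside that of all genes. It was over 50% for 3 of the 5 tested members (Pdgfa, Vegfa and Hgf), against 32% of all genes tested, and over 80% for Hgf alone, against 4.02%. Osm stood at 49.0% and Pdgfb at 34.9%. The biological coefficient of variation that edgeR fitted in common for all genes was 1.11. The spread of single genes differed from this common value. Csf1r, for example, had 5774 ± 212 CPM on day 3 and 7802 ± 6382 CPM on day 10 (SD, n = 3).

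**Figure D3:**
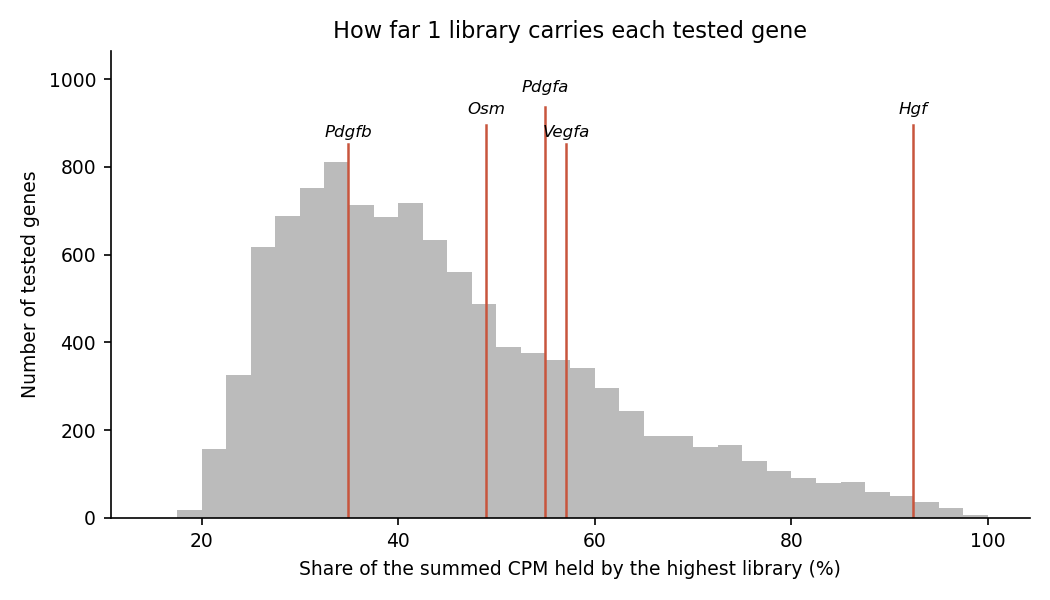
Number of tested genes (y axis) by the share of the summed CPM over 6 libraries that the highest library holds (x axis, percent), with the 5 tested growth factor genes as vertical lines. Hgf at 92.4% lies in the tail, and Pdgfb at 34.9% lies near the peak of the distribution.

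Receptors of the 10 factors were examined in the same cells, from a list of 23 genes. The count table holds 21 of them, of which 4 had no count, among them Pdgfra and Pdgfrb, the receptors of the PDGF chains, and 14 were tested. edgeR and limma-voom called 0 of the 14 and DESeq2 called 2, Acvr2b (adjusted p = 0.0439) and Kdr (adjusted p = 0.0493), beside 0.726% of all genes with an adjusted p. DESeq2 gave no adjusted p for Tgfbr1, so it could not call that gene. Acvr2b and Kdr were also the 2 of 14 at an unadjusted p under 0.05 in edgeR, beside 6.13% of all genes. The log2 ratio was positive for 12 and negative for 2 (median 0.89, beside −0.0023 over all genes tested), and LPC day 10 replicate 3 was the highest library for 10 of the 14. Without that library 9 of 15 were positive, with a median of 0.15 beside −0.09.

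Kdr, a receptor of VEGF-A, had day 3 levels of 0.786, 0 and 0.844 CPM and day 10 levels of 11.4, 14.2 and 14.8 CPM, with no overlap (log2 ratio 4.58; edgeR, unadjusted p = 0.0384, adjusted p = 0.743). Like Osm it passed the filter through day 10. Kdr is also an endothelial marker, and of the other endothelial markers Cldn5, Tek and Esam had no count. Pecam1 reached 7.37 CPM on day 3 and 6.14 CPM on day 10, and Cdh5 10.7 CPM on day 3 and 0.269 CPM on day 10. Flt1, a VEGF-A receptor on the same marker list, had day 3 levels of 11.3, 2.28 and 11.8 CPM and day 10 levels of 54.3, 74.1 and 1.34 CPM (log2 ratio 2.35; edgeR, adjusted p = 0.962). The part of endothelial RNA in the Kdr level was not tested. Nrp1, a VEGF co-receptor, did not overlap either (170.4 ± 21.1 against 283.5 ± 87.1 CPM, SD, n = 3; log2 ratio 0.73; edgeR, adjusted p = 0.999).

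Acvr2b, an activin receptor, had 11, 9 and 5 counts on day 3 and 966, 65 and 2 counts on day 10. LPC day 10 replicate 1, the library with the Tgfb2 counts, held 90.6% of its summed level, and LPC day 10 replicate 3 (0.538 CPM) lay below every day 3 library (log2 ratio 5.18; edgeR, unadjusted p = 0.00813, adjusted p = 0.430). Il6st, the gp130 chain shared by oncostatin M and LIF, had 774.5 ± 233.2 CPM on day 3 and 1109 ± 291.7 CPM on day 10 (SD, n = 3; log2 ratio 0.52; edgeR, adjusted p = 0.999). Osmr, the chain specific to oncostatin M, is listed at 0 FPKM. Met, the HGF receptor, had at most 4.31 CPM and no count in 3 libraries.

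**Figure D4:**
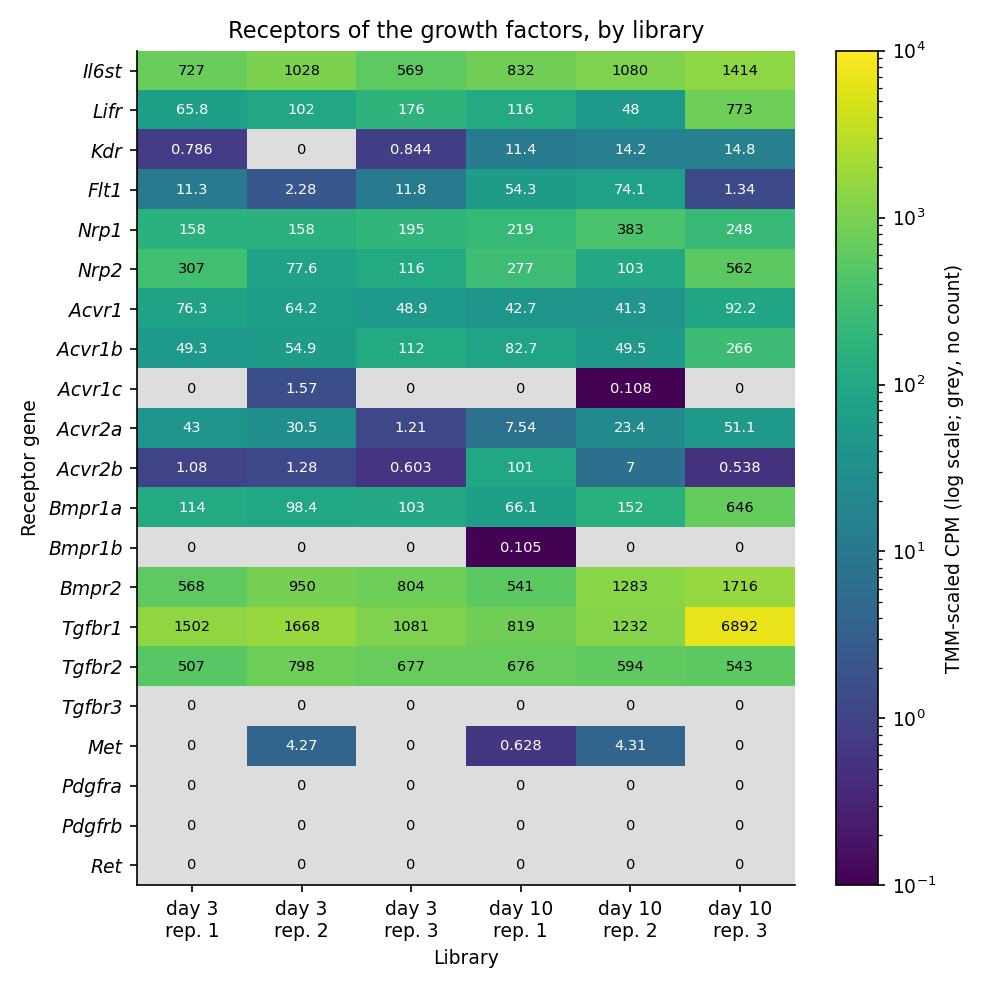
TMM-scaled CPM (colour, log scale; grey, no count) of 21 receptor genes in the 6 libraries, with the value written in each cell. Kdr is below 1 CPM in every day 3 library and above 11 CPM in every day 10 library, and Tgfbr1 reaches 6892 CPM in LPC day 10 replicate 3.

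Genes that activate, bind or inhibit the ligands gave 0 called of 6 tested (edgeR, DESeq2 and limma-voom, and 0 at an unadjusted p under 0.05). Of 22 listed, 19 were in the count table and 10 had no count, including the activin and BMP antagonists Fst, Fstl3, Nog and Chrd. The median log2 ratio was −0.18, and 0.33 without LPC day 10 replicate 3. Spint1, an inhibitor of proteases that activate HGF, had −1.42 and Pcsk7, a proprotein convertase, −0.81 (edgeR, adjusted p = 0.999 for both). Other ligands of the same families gave 0 called of 4 tested by the same tests, with Tgfb1 at 1.33 (−0.17 without LPC day 10 replicate 3) and Vegfb at −0.40.

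Further factors known to act on oligodendrocytes gave 0 called of 7 tested by these tests (20 listed, 19 in the count table, 7 with no count; 3 positive, 4 negative; median −0.11, and 0.77 without LPC day 10 replicate 3). Tgfa, a ligand of the EGF receptor, had a log2 ratio of −0.70. Igf1, which supports oligodendrocyte survival, had 0.70, and 1.24 without LPC day 10 replicate 3.

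Genes known to respond to these pathways were not called by edgeR, DESeq2 or limma-voom. Among them Bcl3, Pim1, Sesn2 and Ppp1r15a had no adjusted p in DESeq2, which therefore could not call them. Of 8 STAT3 targets, which respond to gp130 signalling, 6 had a negative log2 ratio (median −1.52, and −1.01 without LPC day 10 replicate 3). Bcl3 was at −3.23 and Il4ra at −1.66. The 2 positive ones were Stat3 itself at 1.24 and Junb at 1.01. The summed level of the list was 249 to 254 CPM on day 3 and 220 to 352 CPM on day 10. Bcl3 passed the filter through day 3, and its day 10 levels (0, 0.431 and 0 CPM) lay below those of day 3 (1.28, 1.71 and 1.81 CPM). Of 5 SMAD targets 4 were positive (median 0.69, and −0.07 without LPC day 10 replicate 3), with Skil and Smad7, which restrain SMAD signalling, both at 1.13 (Skil at 0.04 and Smad7 at 0.92 without that library). Of 9 hypoxia targets 5 were positive (median 0.13), and without that library 9 of 10 (median 0.50), with Ero1l at 1.29 and the glucose transporter gene Slc2a1 at 1.06 (0.56 and 1.56 without it). With all libraries 0 genes of these 3 lists had an unadjusted p under 0.05 in edgeR. In the edgeR fit that leaves out LPC day 10 replicate 3, the hypoxia targets Slc2a1 and Ankrd37 were under that limit, both with an adjusted p of 0.825. Of 7 stress response genes 3 were positive (median −0.23), with Atf3 at 2.55 and Ppp1r15a at 5.07 (edgeR, unadjusted p = 0.0018, adjusted p = 0.213). Ppp1r15a had 493.0 CPM in LPC day 10 replicate 3 and turned to −2.07 without it. Ddit4 of the stress list did not pass the count filter with all libraries. It had 2, 1 and 1 counts on day 3 and 808, 54 and 1 on day 10. LPC day 10 replicate 1 held 92.8% of its summed level. Without LPC day 10 replicate 3 its log2 ratio was 8.03 (edgeR, unadjusted p = 0.000118, adjusted p = 0.170). In that fit 4 of 8 stress genes were positive (median −0.10).

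Further marker lists described what else the sorted samples held. Astrocyte markers summed to 31.8 to 128.5 CPM on day 3 and 41.4 to 67.6 CPM on day 10, chiefly Slc1a3, with Gja1 at 0. Border macrophage markers, chiefly Mrc1, summed to 23.4 to 93.4 CPM and then 5.49 to 6.19 CPM. Endothelial markers summed to 4.13 to 25.7 CPM and then 16.9 to 94.6 CPM. Flt1 was the most abundant of them by mean CPM, but in LPC day 10 replicate 3 Kdr gave 14.8 of the 16.9 CPM. Neuron (Rbfox3), mural and fibroblast (Acta2) and lymphocyte (Ms4a1) markers summed to at most 10.9, 3.50 and 1.61 CPM. Their part in the growth factor levels was not tested.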

How the data were processed

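Amplified complementary DNA from polyadenylated RNA of 6 samples was read as 100 bp pairs, per the labels' protocols. The submitters' processing notes name GRCm38, STAR 2.5.2a, limma 3.30.8, edgeR 3.16.5 and R 3.3.2. No source used here gives the counting program, annotation release or strand setting. The deposited raw counts were used as such. The authors' normalized log2 values, not used for tests, differ from log2(count + 0.5) by a fixed amount in each library, to within 0.00954. FPKM columns of the deposited table are named by time point only and were used by group. The authors' deposited log2 fold changes and unadjusted p-values run day 3 minus day 10 (r = −0.996 against day 10 minus day 3) and are quoted with the sign turned.

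The test was run in edgeR 4.0.16 under R 4.3.3 (filterByExpr, minimum count 10, TMM, group only, quasi-likelihood F-test), calling at an adjusted p under 0.05. The procedure was tested on simulated data. The limits it had to pass were set only for a smaller spread between replicates than these data have. The SE is the log2 fold change over the square root of F. The level of a gene is its TMM-scaled CPM; correlations took log2 CPM with prior count 2. Intervals are exact binomial (95%), and a count of 0 was given a limit of 3 counts. That limit is lower than the upper end of the exact interval for a 0 count, which was 0.362 to 0.992 CPM depending on the library. Both cover the counting error of reads only and leave out variation between mice. PCR copies of a molecule could not be recognised, so both may be too narrow for molecules. Positions and exon overlaps are from GENCODE M21 (GRCm38). DESeq2 1.42.0, limma-voom 3.58.1, FPKM-based limma-trend and other scalings and filters were alternatives, as was leaving out each library. The p-values rest on the spread between 3 libraries from 3 mice per group, where differences between mice and between library preparations cannot be told apart. The edgeR fit also shares information on that spread between genes. Besides the members, the genes named are the 2 of smallest p per pathway list, the most abundant marker per cell type and the 2 closest by correlation among genes with a mean of at least 5 CPM; others were added after their values were seen. Members and lists were chosen with earlier results of these data known.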

Additional observations from a re-analysis of the deposited data

How the results depend on the processing

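The number of members called was 0 in every alternative run (lowest adjusted p 0.2155, for Osm). Osm kept its positive sign in 19 of 19 alternatives (1.83 to 6.44), as did Pdgfb its negative sign (−2.35 to −0.90). Hgf kept its own in 16, the other 3 leaving it untested. All 16 included LPC day 3 replicate 3, which held 92.4% of the summed Hgf level, so they could not test whether its sign depends on that library. Hgf reached −5.34 without LPC day 3 replicate 2, but was −2.83 in limma-voom, −2.49 with the replicate block, −1.91 with sample quality weights and −0.9964 in limma-trend on log2(FPKM + 1). Vegfa turned to −0.54 in limma-voom, −0.58 with sample quality weights and −0.41 in limma-trend on log2(FPKM + 0.1), and ranged from −5.56 to 2.51 over left-out libraries. Pdgfa turned to 0.12 in limma-voom with sample quality weights and ranged from −1.35 to 1.55 over left-out libraries. The cause was not tested. DESeq2 gave no p for Hgf. Members without overlap numbered 1, or 2 (with Pdgfb) without LPC day 3 replicate 1 or LPC day 10 replicate 1.

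Over all genes, 12 were called higher and 0 lower. The numbers higher and lower were 113 and 5 when low counts were not filtered, 20 and 1 when genes needed 1 CPM in 3 or more libraries, 45 and 18 in DESeq2, 0 and 1 in limma-voom, 2 and 1 with sample quality weights, 32 and 1 at an adjusted p under 0.1, and 15 and 1 in the robust fit. RLE and library-size scaling and the 3 limma-trend fits on FPKM called 0 higher and 0 lower. Leaving out libraries gave 1 to 208 higher and 0 to 4 lower. RLE scaling moved the median log2 fold change of all genes to 0.13. The replicate numbers did not pair the samples (correlations of 0.0733, −0.0351 and 0.0073, and 3 of 6 samples closest to their own number), and the replicate block gave 0 higher and 0 lower, with Osm at 5.14. The main limits are 3 libraries per group, counts of 0 to 9 for several members, and a level set by 1 library for Hgf and Tgfb2.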

Other observations

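Outside the genes named by rule, 3 related ligands were picked after their values were seen, because their counts also lay in few libraries. Fgf1, a fibroblast growth factor, had 121 and 111 counts in LPC day 10 replicates 1 and 2 (12.7 and 11.9 CPM) and at most 9 counts in any other library. Il6, the founding cytokine of the oncostatin M family, had 114 counts in LPC day 10 replicate 2 and at most 3 elsewhere. Cntf, a relative of LIF, had 58 counts in LPC day 3 replicate 1, 8 in LPC day 10 replicate 1 and 0 in the others. None of the 3 passed the count filter with all libraries. Without LPC day 10 replicate 3, Fgf1 (log2 fold change 4.93, edgeR unadjusted p = 0.0310, adjusted p = 0.825) and Cntf (−2.18, unadjusted p = 0.4215) were tested and not called.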
